A study of Mus musculus with 5 samples.

Results

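The transcripts of 10 enzymes of mitochondrial fatty acid oxidation were examined in brown adipose tissue (BAT): the carnitine palmitoyltransferases Cpt1a, Cpt1b and Cpt2, the acyl-CoA dehydrogenases Acadvl, Acadl and Acadm, both subunits of the trifunctional protein (Hadha and Hadhb), the thiolase Acaa2, and Etfdh, which passes the electrons on. They are 10 of 52022 annotated genes with deposited values, they were chosen by name, and all 10 passed the filter on low counts. RNA came from 3 ATF4 BKO mice, in which Cre recombinase driven by the Ucp1 promoter deletes floxed Atf4 (ATF4 fl/fl) in thermogenic adipocytes, and from 2 WT mice, which carry ATF4 fl/fl without Cre. The Cre transgene and the loss of Atf4 are therefore carried by the same mice, and their effects cannot be told apart. All were described as male, 10 to 12 weeks old, on a C57Bl/6J background and fed ad libitum; by the methods, mice are held at 30 °C for 7 days and then at 4 °C, here for 3 days. Each mouse gave 1 library, so the spread given below is between mice. Cells other than UCP1-expressing adipocytes keep Atf4, and in whole tissue a smaller number of adipocytes cannot be told apart from less RNA per adipocyte.

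Mitochondrial fatty acid oxidation is the main source of reducing equivalents for heat production in brown adipocytes. Long-chain acyl groups are handed to carnitine by CPT1 at the outer mitochondrial membrane, carried across the inner membrane, and handed back to coenzyme A by CPT2. Each turn of the cycle then shortens the chain through a dehydrogenase, a hydratase, a second dehydrogenase and a thiolase, and the electrons of the first step reach ubiquinone through the electron transfer flavoprotein and ETFDH. Malonyl-CoA, the product of acetyl-CoA carboxylase, inhibits CPT1, and the genes of the pathway are known targets of PPAR and ERR nuclear receptors with the coactivator PGC-1α. ATF4 is a transcription factor of the integrated stress response, best known for genes of amino acid supply.

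The deleted gene was checked first. Atf4 had 32.6, 52.6 and 23.5 CPM (counts scaled to the size of each library) in ATF4 BKO replicates 1, 2 and 3 and 286 and 226 CPM in WT replicates 1 and 2. Each ATF4 BKO library lay below both WT libraries (log2 fold change -2.82, standard error 0.34). After adjustment, p was 0.671 with edgeR's quasi-likelihood test and 9.72e-12 with DESeq2, so that the edgeR test used here leaves even the deleted gene uncalled. Between 24698337 and 32452751 estimated counts were assigned per mouse. Brown adipocyte markers were present in all libraries, with 0 of 11 at 0 TPM (a level corrected for transcript length and scaled to one total per library) and a summed level between 16210 and 19370 TPM. Skeletal muscle markers differed most: 20 of the 21 that passed the filter were lower in every ATF4 BKO mouse, and their summed level was 78.4 to 81.7 TPM in ATF4 BKO mice, 166 in WT replicate 1 and 2451 in WT replicate 2. Between 0 and 4 of these 22 markers were at 0 TPM in a library. ATF4 BKO replicate 1 held 4598 counts of Xist, against at most 7 elsewhere, although all mice were described as male. File names carry a prefix of unstated meaning, S1 for WT replicate 1 and ATF4 BKO replicates 1 and 2, and S2 for the other pair. Markers of other cells were measured as lists: log2 fold changes were above 0 for 10 of 10 macrophage markers (0 without overlap) and 8 of 8 endothelial markers (3 without overlap), and of 5 white adipocyte markers tested, 3 were above 0 and 2 below. Of all genes tested, 51.2% were above 0 and 19.6% were without overlap. Their summed levels ran from 459 to 1397 TPM, 365 to 478 TPM and 182 to 311 TPM in ATF4 BKO libraries, against 216 to 1244 TPM, 341 to 425 TPM and 152 to 294 TPM in WT libraries. The part of these cells, of muscle and of the Xist library in the results below was not tested.

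Promoter windows are shown for members whose sequence or expression is taken up again below. RefSeq windows on GRCm38.p6, from 250 bases before to 50 after the annotated start, were used for 8 of the 10 genes. No window was available for Cpt1b, and Acaa2 was left out. The window of Cpt1a (chr19:3323051-3323350, plus strand) belongs to the member with the largest difference between genotypes, and those of Acadm (chr3:153944594-153944893, minus strand) and Acadvl (chr11:70015379-70015678, minus strand) to a pair of dehydrogenases. The window of Hadhb (chr5:30155003-30155302, plus strand) is shown because it covers most of the stretch between the RefSeq starts of Hadha and Hadhb. These genes are transcribed away from each other from RefSeq starts 273 bases apart, and their windows overlap by 228 bases. In GENCODE, used for the counts, the starts lie closer, at 30155162 for Hadha and 30155248 for Hadhb. Sequences run 5′ to 3′ on the gene's strand. Capitals mark AGGTCA, the nuclear receptor half-site, or its reverse complement TGACCT.
Cpt1a: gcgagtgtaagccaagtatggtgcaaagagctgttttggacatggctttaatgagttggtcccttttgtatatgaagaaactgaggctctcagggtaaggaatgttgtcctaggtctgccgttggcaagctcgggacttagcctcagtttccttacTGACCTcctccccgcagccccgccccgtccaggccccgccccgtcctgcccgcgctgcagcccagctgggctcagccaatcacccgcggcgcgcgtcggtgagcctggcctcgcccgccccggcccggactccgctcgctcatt
Acadm: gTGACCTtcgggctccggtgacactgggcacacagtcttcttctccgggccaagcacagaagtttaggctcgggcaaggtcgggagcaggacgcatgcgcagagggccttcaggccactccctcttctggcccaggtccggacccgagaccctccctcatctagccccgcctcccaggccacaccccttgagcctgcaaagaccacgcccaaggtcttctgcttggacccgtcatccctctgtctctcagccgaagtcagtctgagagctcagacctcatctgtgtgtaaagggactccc
Acadvl: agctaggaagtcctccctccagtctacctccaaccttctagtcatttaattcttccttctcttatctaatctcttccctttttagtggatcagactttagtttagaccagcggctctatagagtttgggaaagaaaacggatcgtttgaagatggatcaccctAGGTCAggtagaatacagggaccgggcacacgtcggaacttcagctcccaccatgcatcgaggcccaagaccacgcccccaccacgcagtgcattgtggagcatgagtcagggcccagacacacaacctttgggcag
Hadhb: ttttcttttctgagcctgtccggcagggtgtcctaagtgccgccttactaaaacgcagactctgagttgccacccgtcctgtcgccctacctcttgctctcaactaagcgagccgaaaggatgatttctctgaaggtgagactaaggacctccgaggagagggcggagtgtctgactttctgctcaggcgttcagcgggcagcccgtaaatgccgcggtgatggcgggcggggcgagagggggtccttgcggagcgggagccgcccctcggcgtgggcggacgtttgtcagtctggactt
AGGTCA on either strand was found in 3 of the 8 member windows, 94 bases before the start in Cpt1a, 249 in Acadm and 87 in Acadvl. Of all 32851 windows, 16.3% hold it. The longer ERR-type letters TNAAGGTCA, which contain the first motif, and TGATGNAA, the core of elements bound by ATF4 with C/EBP partners, were searched on both strands and found in 0 of the 8 windows, against 1.28% and 3.97% of all windows. These are matches of letters in short windows.

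Ranked by mean TPM, 6 of the 10 enzymes were among the 100 most abundant genes of the tissue and 9 among the 500 most abundant. Hadhb was the most abundant, with 3614, 3180 and 4036 TPM in ATF4 BKO replicates 1, 2 and 3 and 3290 and 3490 TPM in WT replicates 1 and 2, which placed it at rank 24. Hadha followed at 2051 TPM (mean of all 5 libraries), then Acadvl at 1886, Acadl at 1569, Acaa2 at 1560 and Acadm at 1438. Cpt1b, Etfdh and Cpt2 lay lower, at 614, 458 and 381 TPM. Cpt1a, the form best known from liver, was at 17.1 TPM, rank 4783, and the level of Cpt2 was 22.3 times higher. The plot of TPM by library shows all values. Among neighbours in this order, the ranges over the 5 libraries did not overlap for Hadhb and Hadha, Acadvl and Acadl, Acadm and Cpt1b, Etfdh and Cpt2, or Cpt2 and Cpt1a. They did overlap for Hadha and Acadvl, Acadl and Acaa2, Acaa2 and Acadm, and Cpt1b and Etfdh, and Acadl was above Acaa2 in just 3 of the 5 libraries, whereas Cpt1b was above Etfdh in all 5.

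**Figure D1:**
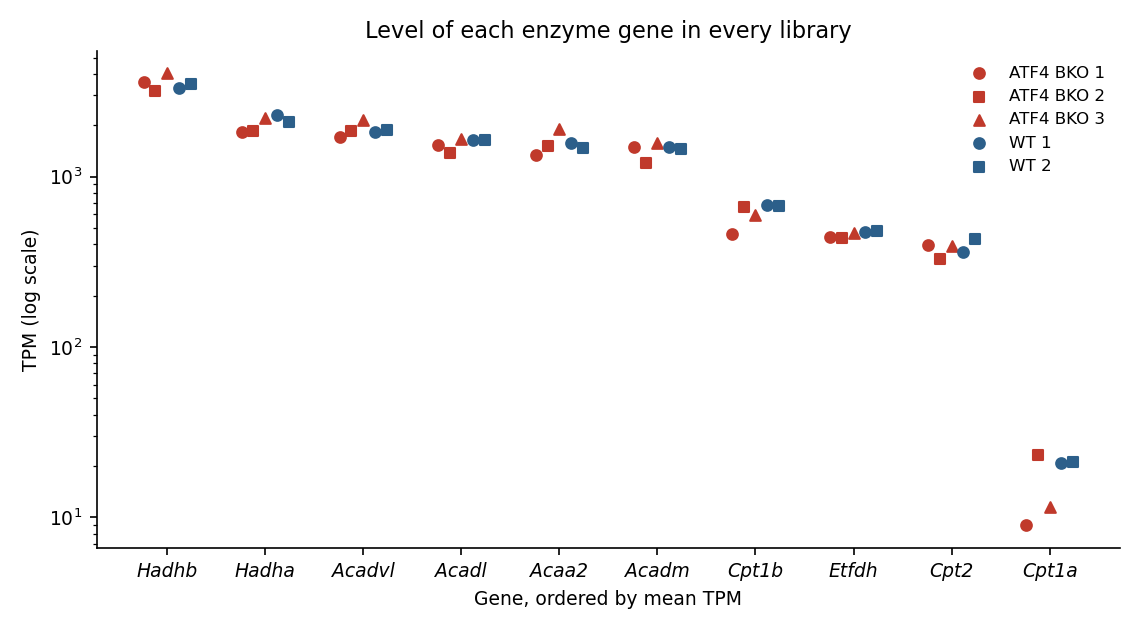
TPM of each of the 10 enzyme genes (log axis) in each of the 5 libraries, with ATF4 BKO mice in red and WT mice in blue. All genes but Cpt1a lie at or above 328 TPM in every library, and Cpt1a lies between 8.97 and 23.2 TPM.

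Together the 10 transcripts made up 1.30%, 1.25% and 1.52% of all TPM in ATF4 BKO replicates 1, 2 and 3 and 1.38% and 1.38% in WT replicates 1 and 2. The WT mice lay between the ATF4 BKO mice, and the mean shares, 1.36% ± 0.14 (SD, n = 3) and 1.38% ± 0.0023 (SD, n = 2), did not differ beyond the spread between mice (exact permutation test, two-sided, p = 1 over 10 splits, where the smallest possible p is 0.1). Transcripts of the mitochondrial genome count toward this total and took 18.5% to 22.0% of counts in ATF4 BKO mice against 15.1% to 15.6% in WT mice. With them left out of the total, the share was 2.01%, 1.78% and 2.25% in ATF4 BKO mice against 1.81% and 1.83% in WT mice, which again overlapped (p = 0.4 in the same exact permutation test).

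The comparison of ATF4 BKO with WT mice addresses which transcripts of BAT depend on Atf4 in thermogenic adipocytes during cold exposure. Both edgeR and DESeq2 called 0 of the 10 enzymes at an adjusted p of 0.05, where 0.00608% and 0.736% of the 16450 genes tested were called. At an unadjusted p under 0.05, there were 0 of the 10 with either tool, against 5.23% of all genes with edgeR and 5.79% with DESeq2. In 0 of the 10 did the ATF4 BKO values all lie on one side of both WT values, where 19.6% of all genes tested did so in CPM, 8.95% higher and 10.6% lower. Their median log2 fold change was 0.11, beside 0.0077 for all genes, with 8 above 0 and 2 below, and 51.2% of all genes were above 0. The smallest adjusted p among the members was 0.930, for Cpt1a. For the 9 genes other than Cpt1a the 95% intervals of the log2 fold change reached from -0.47 at the lowest to 0.73 at the highest, and differences inside them were not detectable with 3 and 2 mice. In the plot of fold changes, every interval crosses 0.

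**Figure D2:**
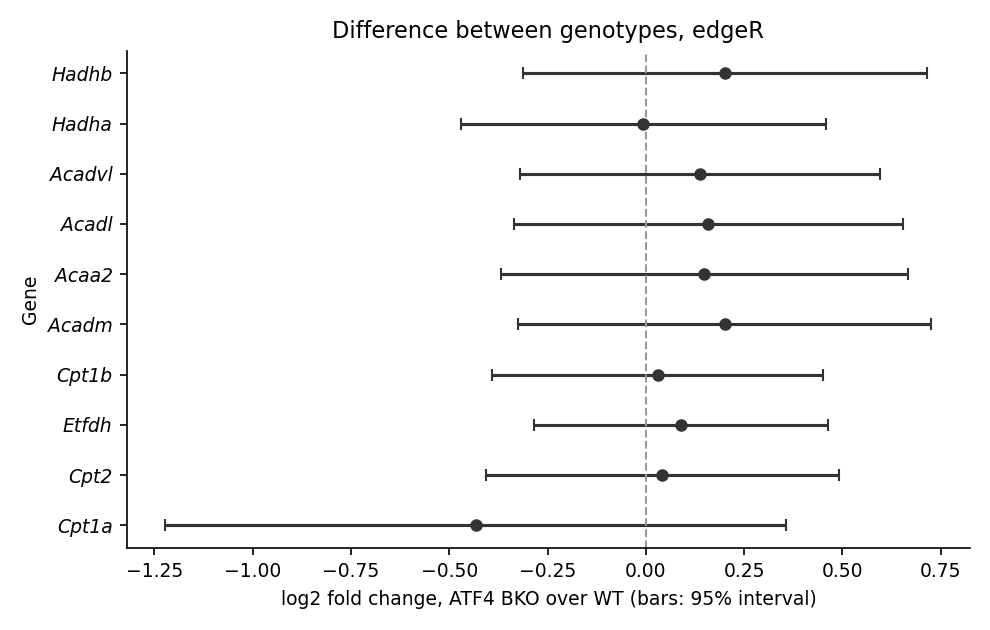
Log2 fold change of each gene, ATF4 BKO over WT, from edgeR (points) with its 95% interval (bars); the dashed line marks no difference. Estimates run from -0.43 for Cpt1a to 0.20 for Acadm and Hadhb, and all 10 intervals include 0.

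Cpt1a (ENSMUSG00000024900.5, chromosome 19 from 3322334 to 3385733 in GRCm38) had the largest difference. It had 35.0, 75.2 and 42.1 CPM in ATF4 BKO replicates 1, 2 and 3 and 69.8 and 67.3 CPM in WT replicates 1 and 2. ATF4 BKO replicate 2 was the highest of all libraries and the other ATF4 BKO mice were the lowest, so the genotypes overlapped. Its log2 fold change was -0.43 (standard error 0.32, 95% interval -1.22 to 0.36, adjusted p = 0.930 with edgeR). Without ATF4 BKO replicate 2 the log2 fold change was -0.81, with an unadjusted p of 0.0026 and an adjusted p of 0.714 (edgeR). Adding the level of skeletal muscle markers to the fit gave -0.013. That level did not overlap between genotypes, so this fit cannot tell genotype and muscle apart. The library with the lowest level, ATF4 BKO replicate 1, is the one with Xist counts, and without it the log2 fold change was -0.23. In these tables Cpt1a rests on 793 to 2282 counts per library, far fewer than the other members, which had at least 15288.

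Cpt1b (ENSMUSG00000078937.8, chromosome 15 from 89416405 to 89425863), the form of muscle and brown fat, had 1072, 1307 and 1340 CPM in ATF4 BKO mice against 1259 and 1170 CPM in WT mice. The WT mice lay between the ATF4 BKO mice, and the log2 fold change was 0.030 (standard error 0.17, 95% interval -0.39 to 0.45). WT replicate 2, with the highest level of muscle markers, had the lower of the WT values. Of the 31-base words of its transcripts, 79.7% also occur in Gm44502, a gene model that runs through Chkb and Cpt1b. Kallisto assigned that model 2.11% to 3.65% of the counts of both together. This share is itself an estimate and cannot show how well shared reads were divided.

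Cpt2 (ENSMUSG00000028607.16, chromosome 4 from 107903981 to 107923610), the inner membrane enzyme, had 741, 544 and 694 CPM in ATF4 BKO mice against 611 and 671 CPM in WT mice. ATF4 BKO replicate 2 was the lowest and the other ATF4 BKO mice were the highest, for a log2 fold change of 0.042 (standard error 0.18, 95% interval -0.41 to 0.49). The gap between the carnitine palmitoyltransferases is thus one of level: Cpt1b exceeded Cpt1a in TPM 51.3-, 28.4- and 52.3-fold in ATF4 BKO mice against 32.8- and 31.7-fold in WT mice.

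The acyl-CoA dehydrogenases, which act on very long (Acadvl), long (Acadl) and medium (Acadm) chains, showed one pattern in CPM. Acadvl (ENSMUSG00000018574.14, chromosome 11) had 3010, 2766 and 3519 CPM in ATF4 BKO mice against 2880 and 2751 CPM in WT mice, and its log2 fold change was 0.14 (95% interval -0.32 to 0.60). Acadl (ENSMUSG00000026003.5, chromosome 1) had 2322, 1817 and 2546 CPM in ATF4 BKO mice against 2015 and 1977 CPM in WT mice, and its log2 fold change was 0.16 (95% interval -0.34 to 0.65). Acadm (ENSMUSG00000062908.12, chromosome 3) had 2200, 1662 and 2447 CPM in ATF4 BKO mice against 1869 and 1789 CPM in WT mice, and its log2 fold change was 0.20 (95% interval -0.32 to 0.73). In each of them, ATF4 BKO replicates 1 and 3 were above both WT mice in CPM and ATF4 BKO replicate 2 was not. The pattern did not hold in TPM. There, ATF4 BKO replicate 1 was below both WT mice for Acadvl (1710 against 1825 and 1879) and Acadl (1537 against 1637 and 1630). For Acadm it lay between them (1482 against 1484 and 1447).

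The trifunctional protein carries out the last steps for long chains, with the hydratase and 3-hydroxyacyl-CoA dehydrogenase in HADHA and the thiolase in HADHB. Hadha (ENSMUSG00000025745.12, chromosome 5 from 30118304 to 30155162, minus strand) had 2549, 2155 and 2750 CPM in ATF4 BKO mice against 2664 and 2327 CPM in WT mice. Hadhb (ENSMUSG00000059447.13, chromosome 5 from 30155248 to 30184593, plus strand) had 3963, 2940 and 4002 CPM in ATF4 BKO mice against 3180 and 3145 CPM in WT mice. The log2 fold changes were -0.0061 for Hadha (95% interval -0.47 to 0.46) and 0.20 for Hadhb (95% interval -0.31 to 0.72), and in both genes ATF4 BKO replicate 2 was the lowest library. A processed pseudogene of Hadhb, Gm13910, shares 19.5% of its 31-base words, and Kallisto assigned it at most 0.0347% of their summed counts.

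Acaa2 (ENSMUSG00000036880.10, chromosome 18), the thiolase for shorter chains, had 1528, 1452 and 2037 CPM in ATF4 BKO mice against 1616 and 1399 CPM in WT mice. Only ATF4 BKO replicate 3 was above both WT mice, and the log2 fold change was 0.15 (standard error 0.21, 95% interval -0.37 to 0.67). Etfdh (ENSMUSG00000027809.14, chromosome 3 from 79603788 to 79629500), the link to the respiratory chain, had 922, 796 and 932 CPM in ATF4 BKO mice against 844 and 817 CPM in WT mice. It had the smallest spread within genotypes of the 10, an SD of 0.11 on the log2 scale, and a log2 fold change of 0.089 (standard error 0.15, 95% interval -0.29 to 0.46).

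Most of the variation lay between ATF4 BKO mice. By CPM, 9 of the 10 enzymes were above both WT mice and 1 below in ATF4 BKO replicate 3, and in replicate 1, 6 were above and 2 below. In replicate 2 the balance was turned, with 2 above and 6 below. Over all genes tested, the shares above and below both WT mice were 32.3% and 36.1% in replicate 3, 30.6% and 35.9% in replicate 1, and 37.7% and 33.2% in replicate 2. The highest of the 5 libraries was ATF4 BKO replicate 3 for 8 of the 10 genes, while ATF4 BKO replicate 2 was the lowest for 6. The plot of each library against the WT mean shows the WT mice closer together for most genes and the ATF4 BKO mice on both sides of them. Within genotypes, the SD on the log2 CPM scale ranged from 0.11 (Etfdh) to 0.47 (Cpt1a) with a median of 0.20, beside a median of 0.25 for all genes tested.

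**Figure D3:**
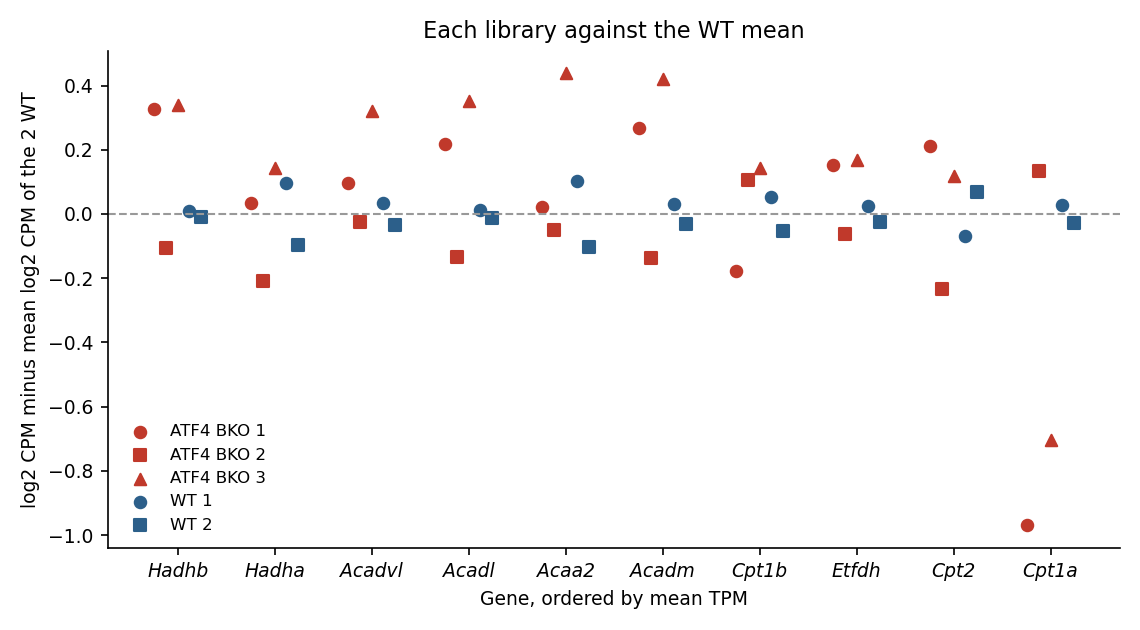
Log2 CPM of each gene in each library minus the mean log2 CPM of the 2 WT mice (dashed line), ATF4 BKO in red and WT in blue. ATF4 BKO replicate 3 is the highest library for 8 of the 10 genes, and ATF4 BKO replicates 1 and 3 are the lowest for Cpt1a, at 35.0 and 42.1 CPM.

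For 7 of the 10 members, the overlap between genotypes in CPM rests on ATF4 BKO replicate 2. Without it, 6 members (Hadhb, Acadvl, Acadl, Acadm, Etfdh and Cpt2) were higher and 1 (Cpt1a) was lower in both remaining ATF4 BKO mice than in both WT mice. In that setting 0 members were called by edgeR, and 39.5% of all genes tested did not overlap. The count was 1 without ATF4 BKO replicate 1 (Cpt1b, with 32.8% of all genes), 1 without WT replicate 1 (Acaa2, with 37.8%) and 0 without either of the other libraries (29.4% and 57.8%). In TPM, without ATF4 BKO replicate 2, Hadhb was still higher and Cpt1a lower, but Etfdh was lower, and Acadvl, Acadl, Acadm and Cpt2 overlapped. Within the name prefixes, the median log2 difference of the 10 members was 0.012 for S1, with 6 above 0, and 0.29 for S2, with 9 above 0. The S2 value comes from 1 mouse of each genotype. Once the muscle marker level was added to the fit, the median was -0.070 and 0 of the 10 were above 0.

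The scale on which levels are set decides the sign for some members. In TPM, Cpt1b had 460, 660 and 598 in ATF4 BKO mice against 681 and 669 in WT mice, and Etfdh had 443, 434 and 463 in ATF4 BKO mice against 472 and 479 in WT mice. On that scale both lay below the WT mice in every ATF4 BKO mouse, as 27.9% of all genes tested lay to one side, whereas in CPM neither did. Library totals alone, without TMM scaling, gave log2 fold changes of -0.073 for Cpt1b and -0.022 for Etfdh, and the cause of the difference between scales was not tested. Over all genes, the median on log2(TPM + 1) was -0.12, and for the members it was -0.090, with 3 of 10 above 0 and 0 called by limma, and with library totals alone the medians were -0.099 and 0.0031.

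Ratios within a library need no scaling between mice, and 7 were compared. The ratio of Hadha to Hadhb in TPM was 0.508, 0.578 and 0.543 in ATF4 BKO mice against 0.699 and 0.598 in WT mice. All ATF4 BKO libraries were below both WT libraries (log2 difference -0.25), and p = 0.1 in an exact permutation test (two-sided, the smallest p that 10 splits allow; 0.7 after adjustment over the 7 ratios). The size rests in part on WT replicate 1, without which the log2 difference was -0.14. Protein-coding transcripts alone gave a log2 difference of -0.21, but they leave out Hadha-201, which held 74.2% to 75.3% of the counts of Hadha and is annotated as a processed transcript.

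The other 6 ratios overlapped between genotypes, with p between 0.4 and 0.8 in the same exact permutation test. Acadl to Acadm lay between 1.04 and 1.15 in all 5 libraries. Etfdh to the sum of Etfa and Etfb, the subunits of the flavoprotein it accepts electrons from, lay between 0.168 and 0.182. Cpt1b to Cpt1a varied most, as given above, and Cpt2 to the sum of both CPT1 genes was 0.846, 0.480 and 0.639 in ATF4 BKO mice against 0.513 and 0.626 in WT mice. The plot of ratios shows the Hadha to Hadhb ratio as the sole one with all ATF4 BKO mice on one side.

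**Figure D4:**
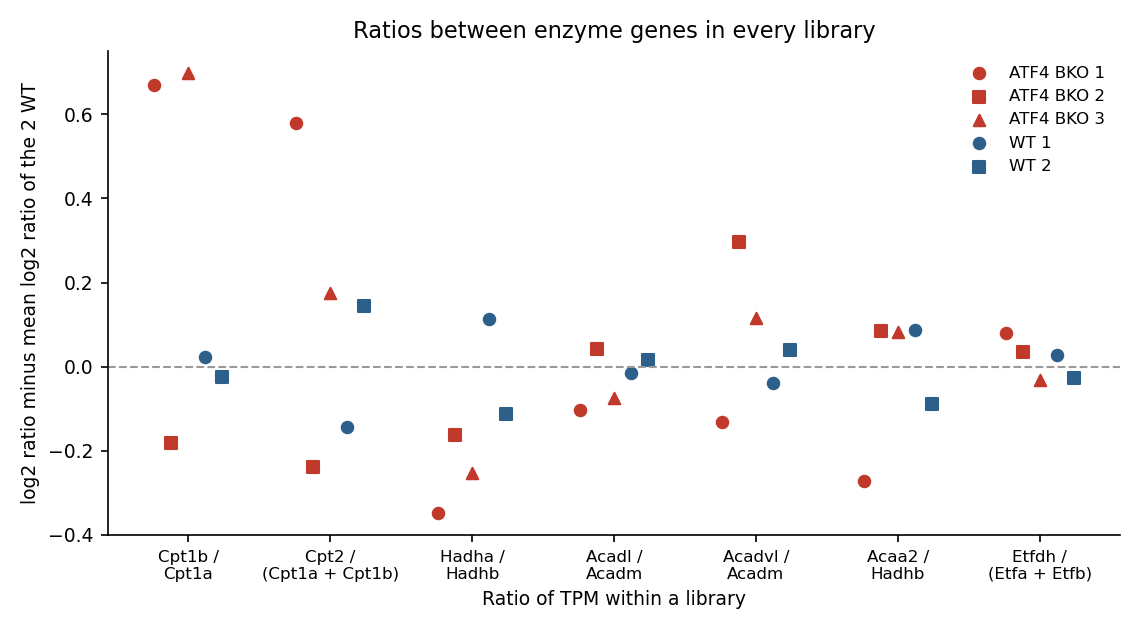
Log2 of 7 TPM ratios in each library minus the mean log2 ratio of the 2 WT mice (dashed line), ATF4 BKO in red and WT in blue. Hadha/Hadhb is below both WT mice in all 3 ATF4 BKO mice, and the other 6 ratios overlap between genotypes.

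The deposited values are per transcript, so the makeup of each gene was examined too. In 9 of the 10 genes, all but Cpt1a, at least 2 transcripts held 1% or more of the gene's counts, 23 transcripts in all. The share of 12 of the 23 lay on one side of both WT mice in every ATF4 BKO mouse, 7 higher and 5 lower, where 21% of 32390 transcripts of all genes did so. Transcripts of a gene divide the same reads, so these shares are not independent, and they were not tested.

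Some short transcripts at or near the 3′ end took more of their gene in ATF4 BKO mice. Acaa2-202, of 504 bases and ending with the gene, held 3.42%, 4.72% and 4.67% of the counts of Acaa2 in ATF4 BKO mice against 1.55% and 2.66% in WT mice. Acadvl-203, a retained intron of 538 bases that ends 6 bases from the gene's 3′ end, held 1.36%, 2.08% and 2.41% in ATF4 BKO mice against 0.321% and 0.877% in WT mice. Hadhb-208, a retained intron of 507 bases ending 357 bases from the 3′ end, held 7.87%, 9.28% and 10.1% in ATF4 BKO mice against 7.02% and 7.46% in WT mice.

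The reverse held for some short transcripts farther up the gene. Acadl-202, of 649 bases and ending 14460 bases of genome from the 3′ end, held 3.39%, 3.41% and 1.84% of the counts of Acadl in ATF4 BKO mice against 5.32% and 4.02% in WT mice. Cpt1b-203, which starts 68 bases from the 5′ end of Cpt1b, held 1.10%, 1.27% and 1.16% in ATF4 BKO mice against 1.47% and 1.33% in WT mice. Position did not sort all of them: Cpt1b-204, inside the gene, was higher in every ATF4 BKO library, and the shares of Hadha-204, near the 3′ end, and of Acadm-210 overlapped. Cpt2-203, which spans nearly the whole gene, was also higher in every ATF4 BKO library. In each of the 5 cases given with values, WT replicate 1 lay farthest from the ATF4 BKO mice. RNA integrity is not given in the sources used here, and its part in these shares and in the gene levels was not tested. The main transcripts kept nearly all of some genes: Acaa2-201, Acadl-201, Acadm-201, Acadvl-202 and Cpt1b-201 held at least 94.7% in every library. In others they held less: Cpt2-201 91.8% to 96.7%, Etfdh-201 86.4% to 95.2%, Hadha-201 74.2% to 75.3% and Hadhb-201 52% to 60%.

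Around these enzymes, 46 other genes of fatty acid oxidation were listed, and 45 passed the filter. Where edgeR and DESeq2 called 0.00608% and 0.736% of all genes tested, each called 0 of these 45. Their median log2 fold change was 0.060, with 29 above 0 and 16 below. Without overlap between genotypes, 6 of the 45 were higher and 4 lower, which is 22.2% beside 19.6% of all genes. At an unadjusted p under 0.05 with edgeR there was 1 of the 45, against 5.23% of all genes tested. It was Acsl4, an acyl-CoA synthetase that prefers arachidonic acid. Its level was 22.1, 20.4 and 23.0 CPM in ATF4 BKO mice against 33.6 and 30.8 CPM in WT mice. The groups did not overlap, and the log2 fold change of -0.56 (standard error 0.13) had an adjusted p of 0.744 from edgeR and 0.118 from DESeq2.

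The genes without overlap came from several steps. Besides Acsl4, those lower in ATF4 BKO mice were Crot, the peroxisomal carnitine octanoyltransferase, with a log2 fold change of -0.27, the peroxisomal transporter Abcd3 with -0.32, and Pex11a, a factor of peroxisome division, with -0.13. Those higher included the carnitine transporter Slc22a5 (0.20), the acyl-CoA synthetase Slc27a2 (0.38), the isomerase Ech1 (0.28) and the peroxisomal bifunctional enzyme Ehhadh (0.80). In TPM, the genotypes overlapped for each of those named as higher, whereas Acsl4, Crot, Abcd3 and Pex11a were again lower without overlap. Ehhadh had 203, 428 and 225 CPM in ATF4 BKO mice against 135 and 193 CPM in WT mice, with an adjusted p of 0.910 (edgeR).

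Partners that act directly with the members had small differences in the edgeR fit. Slc25a20, the carnitine-acylcarnitine carrier of the inner membrane, had 798, 681 and 853 CPM in ATF4 BKO mice against 804 and 783 CPM in WT mice. Etfa had a log2 fold change of 0.11 and Etfb of 0.027, Echs1 of 0.010 and Hadh of -0.020, and Acsl1, the main long-chain synthetase of adipocytes, of -0.065 (standard errors 0.15 to 0.19). In TPM, Slc25a20, Etfb, Echs1, Hadh and Acsl1 were lower without overlap between genotypes, whereas Etfa overlapped. Hadh, for example, had 1002, 826 and 918 TPM in ATF4 BKO mice against 1041 and 1075 TPM in WT mice. On that scale 27.9% of all genes tested were without overlap, in either direction. By mean TPM, the most abundant of the other pathway genes were Etfb (1397), Ech1 (1364) and Etfa (1237). Among 10 peroxisomal genes, 5 were above 0 and 5 below, with a median of -0.019.

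Among 16 regulators, 16 passed the filter and 0 were called by edgeR or by DESeq2, beside 0.00608% and 0.736% of all genes tested. The median log2 fold change was 0.11, with 12 above 0 and 4 below, and 2 (12.5%) lay without overlap, both lower in ATF4 BKO mice, beside 19.6% of all genes tested, 10.6% of them lower. Prkaa2, a catalytic subunit of AMP-activated protein kinase, had 27.2, 32.1 and 26.4 CPM in ATF4 BKO mice against 42.3 and 39.6 CPM in WT mice, and its log2 fold change was -0.52 (standard error 0.14, unadjusted p = 0.00999 and adjusted p = 0.810 with edgeR). Esrrg, an ERR nuclear receptor, had a log2 fold change of -0.34. Klf15, a transcription factor induced by fasting, had 38.4, 74.5 and 82.9 CPM in ATF4 BKO mice against 21.6 and 40.5 CPM in WT mice, and its log2 fold change was 1.07 with an adjusted p of 0.910 (edgeR).

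Among the nuclear receptors and coactivators that drive the pathway, the genotypes of those named next overlapped in CPM, while Ppara in TPM was lower in each ATF4 BKO library than in both WT libraries. Ppara had 67.0, 92.4 and 50.6 CPM in ATF4 BKO mice against 84.5 and 130 CPM in WT mice (log2 fold change -0.62, adjusted p = 0.910 with edgeR). Ppargc1a, which encodes PGC-1α, had 67.6, 181 and 61.4 CPM in ATF4 BKO mice against 51.4 and 111 CPM in WT mice. It was highest in ATF4 BKO replicate 2, the library in which most of the enzymes were lowest. Esrra and Pparg, both abundant here, had log2 fold changes of 0.045 and 0.0042.

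Acaca, an acetyl-CoA carboxylase that makes malonyl-CoA, ordered the mice in CPM as Cpt1a did, in reverse, and was alone in this among the 5 listed genes of malonyl-CoA control. It had 1867, 322 and 1111 CPM in ATF4 BKO replicates 1, 2 and 3 and 557 and 778 CPM in WT replicates 1 and 2. Its CPM fell from ATF4 BKO 1 through ATF4 BKO 3, WT 2 and WT 1 to ATF4 BKO 2, and that of Cpt1a rose in exactly that order. The order of the WT mice is a near tie for Cpt1a. In TPM it was reversed, at 20.8 in WT replicate 1 and 21.1 in WT replicate 2. For Acaca it was kept, at 76.3 and 111.5 TPM. The comparison of orders was made after the values were seen. Of the 70 other genes of the 3 lists with distinct values, 6 were in exactly the reverse order of Cpt1a in CPM (Acaca, Acad12, Acat1, Acot11, Acsl5 and Cpt2), which held for 1.67% of 16368 other genes tested. In the same order as Cpt1a were 0 of the 70, beside 1.45% of the 16368. Acsl5, an acyl-CoA synthetase, spanned 614 to 1815 CPM and Acot11, a thioesterase, 387 to 1351 CPM. The orders cross the genotypes, with ATF4 BKO mice at both ends, and 5 libraries are too few for a correlation. Acacb, the carboxylase at the mitochondrial membrane, had 1952, 1421 and 2096 CPM in ATF4 BKO mice against 1665 and 1646 CPM in WT mice, and Mlycd, which degrades malonyl-CoA, had a log2 fold change of 0.28.

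**Figure D5:**
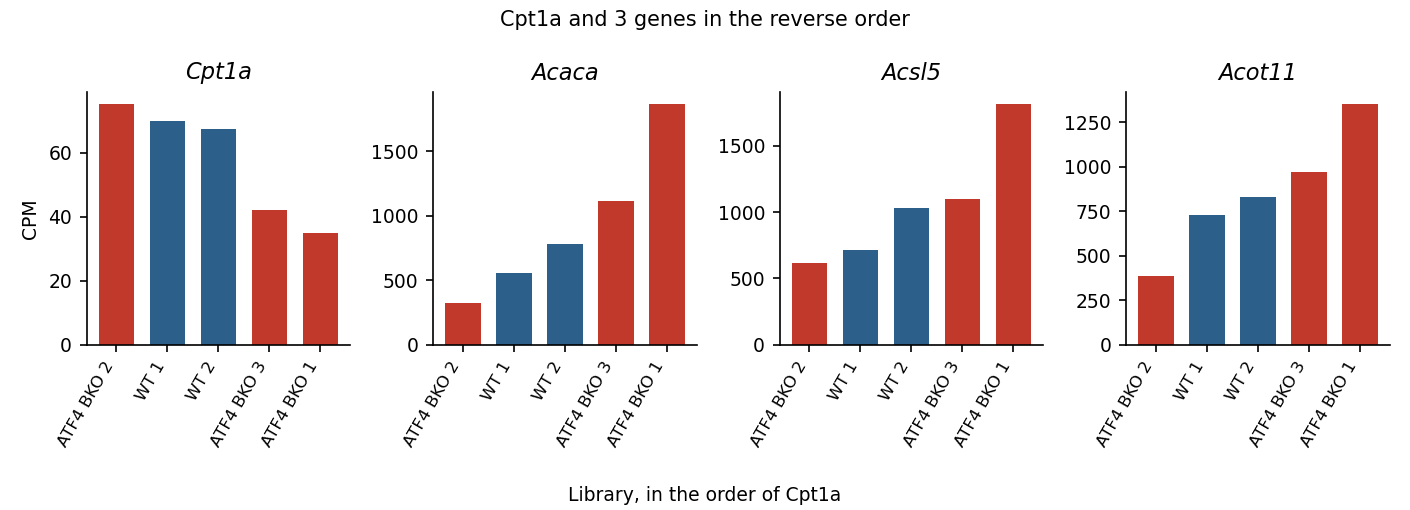
CPM (linear axes from 0) of Cpt1a, Acaca, Acsl5 and Acot11 in each library, with the libraries placed by falling Cpt1a, ATF4 BKO in red and WT in blue. Cpt1a falls from 75.2 to 35.0 CPM while Acaca rises from 322 to 1867 CPM, and ATF4 BKO mice stand at both ends.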

How the data were processed

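BAT RNA of 3 ATF4 BKO and 2 WT mice was analysed, grouped by sample title. The authors prepared stranded mRNA libraries, quantified transcripts with Kallisto 0.45.0 (mm10, per the labels) and deposited, per mouse, estimated counts and TPM per transcript. The transcript annotation is not given in the sources used here. Of 141450 transcripts, 138191 matched GENCODE M21 (GRCm38) and were summed per gene; the others held 1.16% to 1.29% of counts. Summed estimated counts were rounded. No library repeated another (chi-square per degree of freedom between libraries at least 49.9).

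For the comparison of genotypes, edgeR 4.0.16 (R 4.3.3) was used after TMM scaling on genes reaching 10 counts in 2 or more libraries (quasi-likelihood test, Benjamini-Hochberg adjustment over 16450 genes, threshold 0.05), with 3 residual and 3.06 prior degrees of freedom. Intervals are 95% intervals from the standard error. Ratios and shares were compared by exact permutation tests. DESeq2 1.42.0, the paper's tool, and limma 3.58.1 on log2(TPM + 1) and log2(TPM + 0.1) were alternatives. The edgeR fit was also run on simulated counts with large changes and one spread for all genes, which does not measure power in these data. Members, lists and tests were chosen with earlier results of these data known. Named genes are the members, and on the other lists those with an unadjusted p under 0.05, those without overlap, the 3 most abundant, and further listed genes by role; some listed genes are not reported here. Of 148 listed symbols, 147 matched. Library order and transcript shares were examined after the values were seen. Same-numbered mice share a number alone. With 5 mice, precision is set by the spread between mice, not by depth.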

Additional observations from a re-analysis of the deposited data

How the results depend on the processing

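Over the 16 other fits, 0 of the 10 enzymes were called in any, and their adjusted p-values were at least 0.621. The median log2 fold change of the members kept its sign except on log2(TPM + 1) and log2(TPM + 0.1), at -0.0901 and -0.0903, and once muscle markers were a covariate, at -0.0698. It was 0.29 within the S2 prefix. The other pathway genes had medians of -0.0549 under library totals, of -0.138 and -0.141 on those TPM scales, and of -0.0460 with the muscle covariate. For the regulators these were 0.0111, -0.118, -0.124 and 0.324. Leaving out each mouse gave medians of 0.0225 to 0.206 for the members, 0.0137 to 0.139 for the other pathway genes and -0.0208 to 0.190 for the regulators, and 0 to 7 members without overlap, which on both TPM scales numbered 2. The number of genes called in all was 1, and it was 121 with DESeq2, 8 with no count filter, 2 on log2(TPM + 0.1), 0 on log2(TPM + 1) (1461 at an unadjusted p under 0.05), 215 with the muscle covariate, 0 with the name prefix as a block (876) and 0 to 23 when a mouse was left out. Atf4 passed the threshold with DESeq2 (-2.83) and with no count filter (-2.83).

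A replicate block on the numbers left 0 calls (711 genes had an unadjusted p under 0.05) and the median of the members was 0.0121. Deviations of same-numbered mice correlated at 0.0473 (replicate 1) and 0.2 (replicate 2). From protein-coding transcripts alone, the log2 difference of Acadvl to Acadm was -0.0858, against 0.093, and without the mitochondrial genome in the total the members' share of TPM differed by 0.187 percentage points, against -0.0221. Fits without 1 WT mouse assume that the lone WT mouse varies like the ATF4 BKO mice. The muscle covariate did not overlap between genotypes, so the fit with it cannot tell muscle and genotype apart. The cause of these shifts was not tested.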

Other observations

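Outside the oxidation pathway, 12 other genes known as PPAR targets were listed, and all 12 passed the filter. DESeq2 called 1 of them, Fgf21, an endocrine factor that ATF4 also controls, where it called 0.736% of all genes tested. Fgf21 had 1.24, 0.890 and 0.572 CPM in ATF4 BKO mice and 5.13 and 16.1 CPM in WT mice (log2 fold change -3.57, adjusted p = 0.671 with edgeR). The other 11 had log2 fold changes between -0.21 and 0.54, and 2 of them were higher without overlap between genotypes. These were the fatty acid binding protein Fabp4, with 6977, 6961 and 8745 CPM in ATF4 BKO mice and 6186 and 6446 CPM in WT mice, and the triglyceride lipase Pnpla2, with 1926, 1963 and 3061 CPM against 1804 and 1746 CPM. Neither passed the threshold, and 19.6% of all genes tested did not overlap in CPM. In TPM, the genotypes overlapped for both Fabp4 and Pnpla2. Pdk4, the kinase that restrains pyruvate oxidation, had 1629, 2821 and 1353 CPM in ATF4 BKO mice and 1372 and 2660 CPM in WT mice, so that the genotypes overlapped.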
